A study of Mus musculus with 12 samples.

Results

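The genes described here are those on which all 3 Crls1-edited clones of NIH-3T3 cells stood on the same side of wild type (WT). A gene was taken when its value in each of the 9 clone libraries lay above the 3 WT values, or when each of the 9 lay below them. Among 15073 tested genes, those reaching a normalized count of 10 in 3 or more libraries, 4380 (29.1%) met this rule. All 9 clone values lay above WT for 2072 genes (13.7%) and below WT for 2308 genes (15.3%). The genes were thus selected on their normalized counts in the clones and in WT, so their distance from WT is given as a description, with no test, and no clone value of a gene overlaps WT by construction. A normalized count is the number of reads on a gene divided by a size factor of its library, as the authors deposited it.

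NIH-3T3 is an immortalised line of mouse embryonic fibroblasts. The 3 WT libraries come from cells of wild-type genotype, and the clones KO1, KO2 and KO3 have the genotypes Crls1KO1, Crls1KO2 and Crls1KO3, with 3 libraries each. To make the clones, a plasmid carrying Cas9 together with a Crls1 guide was transfected, single GFP-positive cells were sorted and each was expanded, so that every clone descends from 1 cell. All 4 groups grew in the same medium with glucose, glutamine, serum, pyruvate and uridine. Whether WT cells went through a sort as well is not stated. What follows from editing Crls1 and what follows from growing a line out of 1 cell therefore cannot be told apart here. Nothing in the labels says that the 3 libraries of a group came from separate cultures, so the p-values below rest on the spread among these libraries alone, and that spread may be technical. All 3 clones are compared with the same WT libraries.

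Crls1 encodes cardiolipin synthase, the enzyme that joins phosphatidylglycerol and CDP-diacylglycerol into cardiolipin in the inner mitochondrial membrane. Cardiolipin is the signature phospholipid of that membrane, where it binds respiratory complexes and carriers and helps to shape the cristae. After synthesis its fatty acids are exchanged, with tafazzin as the best known remodelling enzyme. Crls1 itself (chr2:132846666-132866785, plus strand, GRCm38) had normalized counts of 739.7, 873 and 834 in WT, 209, 209 and 213 in KO1, 336, 338 and 374 in KO2 and 363, 372 and 408 in KO3. As mean ± SD (n = 3) this was 815 ± 68.4, 210.4 ± 2.67, 349 ± 21.1 and 381 ± 23.9 in WT, KO1, KO2 and KO3. All 9 clone values lay below WT, and the log2 changes of the clone means were -1.95, -1.22 and -1.09 for KO1, KO2 and KO3, on the log2(normalized count + 1) scale used for every change below. The counts do not show the sequence of the remaining Crls1 transcripts.

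Library depth ran from 32929242 to 42211807 reads recovered from the deposited values. WT replicate 1 stood somewhat apart from the other WT libraries, with correlations of 0.983 and 0.981 to them against 0.989 between them, as a description over 15073 genes. Without it, 2661 genes lay above WT and 2845 below. The fibroblast label was read against 15 fibroblast markers, of which 12 passed the filter, 2 lying above WT (Col3a1, Prrx1) and 2 below (Col1a2, Pdgfrb). That is 16.7% each way, near the 13.7% above and 15.3% below of all tested genes. Vim had means of 75443 in WT and 73311 to 99059 in the clones, while Lum and Fap were at 0 in all libraries and Dcn had at most 0.656 as a group mean. Of markers of other cell types, the defining epithelial gene Epcam had a mean of 0 in WT, KO1 and KO2 and of 0.585 in KO3, yet the epithelial cadherin Cdh1 had 19.99, 13.5 and 19.9 in WT and 171 to 369 across the clones. Summed over 12 epithelial markers, the normalized counts were 101 to 129 in the WT libraries, 751 to 771 in KO1, 279 to 315 in KO2 and 397 to 421 in KO3. Of the 4 epithelial markers tested, Grhl2, Cdh1 and Krt14 lay above WT and Krt8 below. The 12 adipocyte markers summed to 1704 to 2018 in WT, 7071 to 7463 in KO1, 4070 to 4346 in KO2 and 8984 to 9366 in KO3. Lpl alone made up most of these sums, with means of 1751, 6808, 3891 and 8625, whereas Adipoq, Plin1 and Cfd had at most 6.16. Of the 4 adipocyte markers tested, Pparg and Lpl lay above WT and 0 below. The 12 haematopoietic markers summed to 1851 to 2075 in WT and 1051 to 2158 in the clones, with 2 of 8 tested genes, Csf1r and Itgam, below. Of neural markers 3 of 5 tested lay above (Tubb3, Gfap, Mbp), of muscle markers 1 of 7 (Des), and of endothelial markers 1 of 7 above (Vwf) and 1 below (Flt1). The muscle and endothelial shares above WT, 14.3%, were near the 13.7% of all tested genes. Gfap had a mean of 0.301 in WT and 11.6 to 31.4 in the clones, and Mbp 65.6 and 70.5 to 112. The epithelial, adipocyte and neural shares rest on only 4 or 5 tested genes each. The 12 muscle markers summed to 121 to 164 in WT, 1689 to 2271 in KO1, 312 to 428 in KO2 and 197 to 1755 in KO3, with Myf5 at a mean of 1378 in KO1 and 0 in WT and Ttn at 527 in KO3 and 12.2 in WT. The 12 neural markers summed to 313 to 325 in WT, 982 to 1003 in KO1 and 301 to 439 in KO2 and KO3, and the 12 endothelial markers to 293 to 323 in WT, 902 to 929 in KO2 and 295 to 390 in KO1 and KO3. Myod1, Actc1, Cebpa, Lep, Snap25, Olig2, Cldn4 and Cldn5 were at 0 in all 12 libraries. Any part of these cell types in the results was not tested. In such bulk samples, more cells with a transcript and more transcript per cell cannot be told apart.

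The shared differences ranged from slight to very large. Among genes above WT, the median change of the mean of the clones was 0.77, and it was -0.63 among genes below, against 0.01 over all tested genes. In 1132 of the genes above and 1537 of those below, the clone nearest to WT differed by less than 1.5-fold. At least 2-fold in every clone was reached by 534 genes above and 422 below, at least 8-fold by 81 and 93, and at least 32-fold by 9 and 18. The nearest clone and WT libraries were less than 1.1-fold apart for 664 genes above and 812 below. Protein-coding genes made up 91.1% of the genes above and 90.6% of those below, against 83.8% of those tested. The median WT mean was 469 for genes above and 1939 for genes below. Of the genes above, 213 passed the filter on low values only through clone libraries, and 99 of those below passed it only through WT, so their difference was fixed by the filter.

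**Figure D1:**
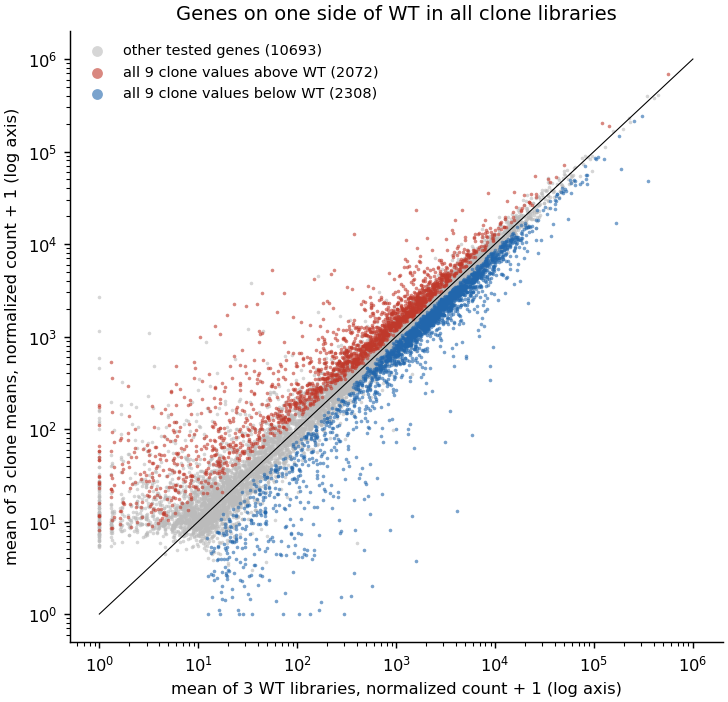
Mean normalized count of the 3 WT libraries against the mean of the 3 clone means, each plus 1, on log axes, for 15073 genes. Red points are the 2072 genes whose 9 clone values lay above WT, blue points the 2308 below, grey points the 10693 other genes, and the line marks equality; the coloured points reach from beside the line to far from it.

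The widest gaps above WT were found at genes with low WT counts. Foxf1 (chr8:121084386-121088144, plus strand), which encodes a forkhead factor of lung and gut mesenchyme, had 24.7, 29.0 and 26.2 in WT, 888, 968 and 943 in KO1, 657, 623 and 668 in KO2 and 599, 530.0 and 599 in KO3. The log2 changes were 5.08, 4.56 and 4.38, and its lowest clone library stood far above its highest WT library. Npas3, a transcription factor best known from brain, had 14.1, 8.28 and 13.5 in WT, 237, 264 and 347 in KO1, 347, 272 and 399 in KO2 and 594, 340.5 and 707 in KO3. Akap6, an anchor for protein kinase A at the nuclear envelope of muscle cells, had 8.23, 10.4 and 6.32 in WT, 484, 378 and 417 in KO1, 161, 171 and 204 in KO2 and 756, 764 and 726 in KO3. Both genes lie on the plus strand of chromosome 12, Akap6 at chr12:52699383-53155599 and Npas3 at chr12:53248677-54072175, close together. Astn2, a membrane protein of migrating neurons, had 19.99, 20.7 and 21.7 in WT and 290.0 to 474 in the clones. Pappa, a protease that cleaves IGF-binding proteins whose gene ends close to that of Astn2 on chromosome 4, had 4.70, 6.21 and 17.2 in WT, 865, 968 and 858 in KO1, 1871, 1707 and 1803 in KO2 and 266, 255 and 249 in KO3. Across the clones Astn2 varied far less than Pappa, which was highest in KO2. Cpne4, a calcium-dependent membrane-binding protein, had 0, 1.04 and 0 in WT, 25.7, 30.6 and 23.6 in KO1, 202, 155 and 181 in KO2 and 238, 269 and 259 in KO3. Tnr, which encodes tenascin-R, a matrix glycoprotein of nervous tissue, had 11.8 to 22.8 in WT and 1338 to 2213 in the clones. That was the widest gap above WT among genes with a mean of at least 100, leaving out predicted gene models.

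At the other end stood genes with ample WT counts that were nearly lost in every clone. Cspg4 (chr9:56865033-56899870, plus strand), the proteoglycan NG2 of pericytes and progenitor cells, had 8955, 8815 and 8723 in WT, 459, 468 and 451 in KO1, 393, 432 and 449 in KO2 and 476, 572 and 565 in KO3. Its log2 changes of -4.26, -4.38 and -4.04 put the 3 clones at about the same low level. Dkk3, a secreted protein of the Dickkopf family, had 463, 516 and 443 in WT, 11.8, 10.6 and 16.7 in KO1, 27.1, 30.7 and 26.4 in KO2 and 9.33, 6.14 and 11.7 in KO3. Slfn4, a Schlafen gene of the myeloid lineage, had 726, 719.6 and 736 in WT, 7.49, 15.8 and 11.8 in KO1, 52.2, 51.7 and 25.5 in KO2 and 2.07, 0.877 and 3.20 in KO3. For Slfn4 the clones did not overlap among themselves, with KO2 highest and KO3 lowest, and reads of close Schlafen paralogs could be shared. Dusp27, a catalytically inactive phosphatase known from muscle, had 552, 526 and 476 in WT, 39.6, 30.6 and 28.5 in KO1, 2.80, 2.87 and 3.52 in KO2 and 15.5, 21.9 and 13.9 in KO3. Trim54, a ring-finger protein of the sarcomere, had 410.4, 508 and 490.4 in WT and 0 to 11.8 in the clones. Among genes with a mean of at least 100, leaving out predicted gene models, the widest gap below was that of Enpp5. This membrane-bound member of the nucleotide pyrophosphatase family had 1676, 1647 and 1460.4 in WT and 0 to 7.49 in the clones. Inhba, which encodes the activin A subunit, had 10209, 9054 and 9337 in WT, 879.8, 919 and 833 in KO1, 645, 773 and 818 in KO2 and 698, 727 and 584 in KO3.

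**Figure D2:**
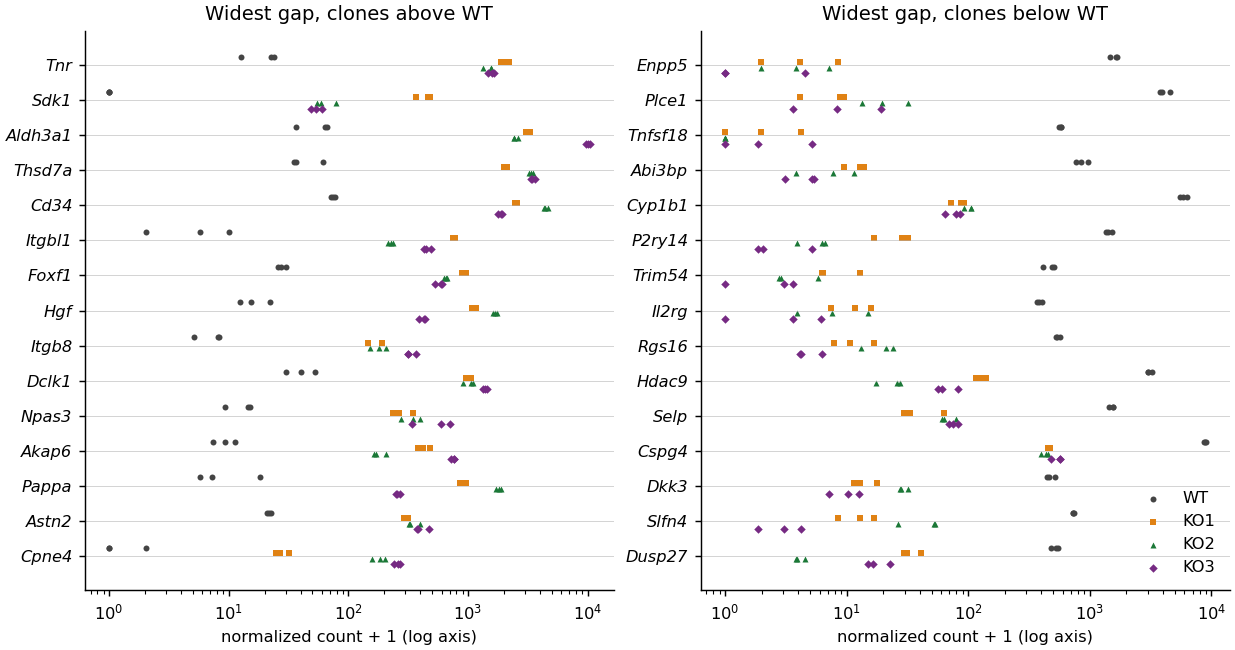
Normalized count plus 1 in each of the 12 libraries, on a log axis, for the 15 genes above WT (left) and the 15 below (right) with the widest gap between the nearest clone and WT libraries, at a mean of at least 100. Each point is 1 library, with 3 per group; in every row the black WT points stand clear of the 9 coloured clone points, while the order of the clones differs from gene to gene.

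The members with the highest counts, a ranking that also depends on transcript length, follow first for genes below WT. Thbs1, which encodes thrombospondin-1, a matrix glycoprotein that activates TGF-beta, had 370662, 340389 and 345607 in WT, 71494, 68219.7 and 66750.5 in KO1, 46597, 56794 and 63437 in KO2 and 19855, 19738 and 17782 in KO3. Bgn, the small proteoglycan biglycan, had 184417, 192413 and 186177 in WT and 46196 to 79338 in the clones. Both of these lay below WT in the same order of clones, KO1 nearest to WT and KO3 farthest. Csf1, the macrophage growth factor, had 32299, 26951 and 27402 in WT and 8058 to 14185 in the clones, and Myh10, a non-muscle myosin heavy chain, had 34459, 37235 and 37772 and 9860.4 to 13948. Above WT, Timp3, a matrix-bound inhibitor of metalloproteinases, had 9399, 8243 and 7974 in WT, 31246, 30122 and 29878 in KO1, 50844, 49611 and 51920.0 in KO2 and 26060.3, 25091 and 24395 in KO3. Ptx3, a soluble pattern-recognition protein, had 4544, 4655 and 4800.2 in WT and 18363 to 33004 in the clones. Dlk1, an imprinted membrane protein of preadipocytes, had 1436, 1658 and 1685 in WT, 18397, 17803 and 18920.5 in KO1, 29189, 26267 and 22194 in KO2 and 24031, 23716 and 28626 in KO3. Fth1, the ferritin heavy chain that stores iron, had 17928, 27549 and 30894 in WT, 39511, 43289 and 43187 in KO1, 54698, 50590.5 and 42859.7 in KO2 and 65117, 71684 and 83419.5 in KO3; WT replicate 1 was the lowest library of all for it. Vcan, the large proteoglycan versican, had 14596, 12256 and 12773 in WT and 24294 to 32898 in the clones.

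Gene lists put these members into pathways. The lists were chosen with earlier results of these data known, so their shares are a description, with no set test. Of 20 cholesterol synthesis genes tested, 0 lay above WT and 18 (90%) lay below, against 15.3% of all tested genes below. The median change of the list was -0.94, against 0.01 over all tested genes. Hmgcs1, which makes HMG-CoA at the head of the mevalonate pathway, had 12710.5, 11022 and 10996 in WT, 5679.9, 5827 and 5615 in KO1, 4112, 4349 and 4632 in KO2 and 4237, 4245 and 4010.2 in KO3. Idi1, the isomerase that supplies the building block of isoprenoids, had 10568, 9485 and 9466 in WT and 2154 to 3585 in the clones. Cyp51, the lanosterol demethylase, had 14593, 13707 and 13913 in WT, 7248, 7505 and 7317 in KO1, 4832, 5596 and 5897 in KO2 and 5525, 5499 and 5384 in KO3, and Pmvk, a kinase of the mevalonate arm, had 929, 1235 and 1338 and 348 to 603. For these genes every clone library was below every WT library, with KO2 or KO3 lowest. The sterol sensors and carriers of the same system were less uniform, with 2 above and 6 below of 15. Insig1, which retains the SREBP complex in the endoplasmic reticulum, had 8131, 7986 and 8068 in WT and 2672 to 4703 in the clones, whereas its relative Insig2 had 2532, 2034 and 2151 and 2612 to 3311 and lay above. Abca1, which exports cholesterol to apolipoprotein A-I, had 2.35, 6.21 and 0.903 in WT, 382, 368 and 392.5 in KO1, 24.3, 35.5 and 33.4 in KO2 and 30.1, 33.3 and 46.9 in KO3, far higher in KO1 than in the other clones. In fatty acid synthesis 0 of 16 lay above and 8 below, including the elongase Elovl6 with 4959, 4199.6 and 4354 in WT and 1175 to 1703 in the clones and the desaturase Fads2 with 8645, 8744 and 8606 and 4976 to 6372.

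Promoter bases are shown for Hmgcs1 because it holds both motifs searched for in the cholesterol list. Windows of 300 bases around the RefSeq start (250 before, 50 after, GRCm38.p6) were searched on both strands for 9221 tested genes whose RefSeq and GENCODE starts lay within 500 bases. CCAAT, read as ATTGG on the other strand, was found in 11 of 12 cholesterol synthesis members with a window in 12 of 14 genes of the whole list and in 40.3% of all windows. The same letters were frequent in other lists too, with 20 of 24 windows of mitosis genes. The sterol response element TCACNCCAC was found in 1 of these 12, Hmgcs1, and in 1.06% of all windows. The 250 bases before the Hmgcs1 start (chr13:119690101-119690350, plus strand) follow 5′ to 3′, with these motifs in capitals. Of all shared genes, 41.1% of windows above WT and 43.0% below held CCAAT. A match describes letters and does not show binding.
Hmgcs1: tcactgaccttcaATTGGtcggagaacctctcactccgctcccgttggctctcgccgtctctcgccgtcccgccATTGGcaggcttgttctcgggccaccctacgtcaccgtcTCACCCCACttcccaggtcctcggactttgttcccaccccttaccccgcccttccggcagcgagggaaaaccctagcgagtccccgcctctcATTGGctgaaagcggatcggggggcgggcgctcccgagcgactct

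Of 36 DNA replication genes, 0 lay above WT and 28 (77.8%) below, against 13.7% and 15.3% of all tested genes. The median change of this list was -0.56. The MCM proteins form the replicative helicase. Mcm5 had 8187, 8046 and 8103 in WT, 3864, 3729.7 and 3590.3 in KO1, 3291, 3999 and 4323 in KO2 and 4111, 4176 and 4237 in KO3, and Mcm6 had 11593, 9096 and 10023 in WT and 3552 to 5218 in the clones. Mcm3, with 7502, 8588 and 9078 in WT and 3006 to 4848 in the clones, was lowest in KO2. Pcna, the sliding clamp of the polymerases, had 9039, 9563 and 9215 in WT, 5098, 5259 and 4925 in KO1, 3968, 4724 and 4752 in KO2 and 4861, 5062 and 4649 in KO3. Of 31 genes of mitosis 0 lay above and 8 (25.8%) below, among them the cyclin Ccna2 with 12075, 11192 and 11612 in WT, 8668, 8779.6 and 8396 in KO1, 4767, 5436 and 5649 in KO2 and 8366, 8723 and 8121 in KO3. For Ccna2 the KO2 minus KO1 difference was -0.71 (SE 0.06, adjusted p = 2.4e-06) and the KO3 minus KO1 difference -0.04 (SE 0.06, adjusted p = 0.68), both by limma. The medians of the mitosis list were -0.17 in KO1, -0.69 in KO2 and 0.03 in KO3, so the clones did not share a level for it. Among 19 targets of p53, 7 (36.8%) lay above and 1 (5.26%) below. Cdkn1a, the CDK inhibitor p21, had 3069, 3324 and 3244 in WT and 3582 to 4451 in the clones. Gadd45a, a stress-induced growth-arrest gene, had 166, 209 and 228 in WT, 757, 672 and 706 in KO1, 452, 425 and 359.6 in KO2 and 2326, 2235 and 2378 in KO3. Bbc3, the BH3-only protein PUMA, had 199.9, 272 and 212 and 332 to 632. Btg2, an antiproliferative gene, was the 1 below, with 1278, 1231 and 1165 in WT and 564 to 911 in the clones.

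Starts of replication genes are shown for their E2F letters, the motif class known for S-phase genes. TTTGGCGC, TTTGCCGC, TTTCGCGC or TTTCCCGC was found on either strand in 7 of 23 DNA replication members with a window, in 10 of 28 genes of the whole list and in 4.26% of all 9221 windows. Of all shared genes it was 2.46% above WT and 5.33% below. The 250 bases before Mcm6 (chr1:128359706-128359955, minus strand) hold a pair of overlapping matches and a single one, and those before Mcm5 (chr8:75109259-75109508, plus strand) a pair of overlapping matches. Capitals mark them.
Mcm6: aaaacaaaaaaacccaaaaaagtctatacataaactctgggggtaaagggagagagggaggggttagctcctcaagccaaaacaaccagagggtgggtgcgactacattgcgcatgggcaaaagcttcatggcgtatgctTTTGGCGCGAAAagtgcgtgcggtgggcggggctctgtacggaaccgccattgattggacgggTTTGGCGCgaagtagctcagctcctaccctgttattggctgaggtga
Mcm5: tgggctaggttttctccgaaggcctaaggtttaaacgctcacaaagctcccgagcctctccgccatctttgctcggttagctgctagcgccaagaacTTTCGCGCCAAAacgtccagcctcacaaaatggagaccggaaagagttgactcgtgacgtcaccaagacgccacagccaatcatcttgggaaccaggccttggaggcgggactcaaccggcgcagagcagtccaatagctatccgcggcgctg

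Of 16 cardiolipin pathway genes tested, 1 (6.25%) lay above WT and 1 (6.25%) below, where 13.7% and 15.3% of all tested genes did. Taz, which encodes tafazzin, had 729, 1004 and 898 in WT, 1128, 1144 and 1169.6 in KO1, 1372, 1312 and 1462 in KO2 and 1275, 1358 and 1121 in KO3. Lclat1, the acyltransferase also called ALCAT1, had 6276, 4357 and 4189.7 in WT and 2720.0 to 3406 in the clones. Of 74 nuclear genes for subunits of oxidative phosphorylation, 12 (16.2%) lay above, near the 13.7% of all tested genes, and 2 (2.70%) below. Uqcr10, a small subunit of complex III, had 779, 1037 and 1032 in WT, 1665, 1596 and 1656 in KO1, 1706, 1607 and 1591 in KO2 and 1682, 1334 and 1463 in KO3. Ndufb9, of complex I, had 1558, 2125 and 1929 in WT and 2754 to 3734 in the clones, and Ndufs1, its largest subunit, lay below with 6963, 6147 and 6211 and 4653 to 6074. Of 9 mitochondrially encoded mRNAs analysed here, mt-Co1 lay above and mt-Cytb and mt-Nd1 below. Under quantile normalization the mean changes of mt-Co1 and mt-Nd1 were 0 and 0.014 and no longer had these signs. That method gives a gene of the same rank in every library 1 common value, so the 0 of mt-Co1 cannot decide its direction. mt-Cytb, the cytochrome b of complex III, had 247852, 261223 and 255872 in WT and 188977 to 230748 in the clones. Among 79 mitochondrial ribosomal protein genes, 0 lay above and 6 (7.59%) below. Mrpl16 of the large subunit had 1477, 1584 and 1532 in WT and 969.9 to 1267 in the clones. Of 68 cytosolic ribosomal protein genes 6 lay above and 2 below. Rpl39, above, had 6974, 12309 and 12864 in WT and 13218 to 18852 in the clones, and Rpsa, below, had 168386, 106225 and 105718 and 72255 to 92754. WT replicate 1 was the lowest WT library for all 6 genes above and the highest for both below, and pseudogenes of these genes can share reads.

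Fatty acid oxidation had 7 of 22 genes (31.8%) above WT and 1 (4.55%) below, against 13.7% and 15.3% of all tested genes. Cpt1a, the carnitine transferase that admits long-chain acyl groups to mitochondria, had 2377, 1967 and 1966 in WT, 4697, 4537 and 4630.0 in KO1, 5101, 5252 and 5286 in KO2 and 4155, 3971 and 4277 in KO3. Acaa2, the last enzyme of the beta-oxidation spiral, had 441, 593 and 550.0 in WT, 1130.2, 1071 and 1039.7 in KO1, 1528, 1309 and 1265 in KO2 and 1119.5, 1055 and 1244 in KO3. Etfa, a flavoprotein that passes the electrons on, had 2834, 2932 and 2708 in WT and 3666 to 4067 in the clones. Acad9, which also assembles complex I, lay below with 3136, 2660.0 and 2756 and 1734 to 2517. Glycolysis had 2 of 21 (9.52%) above and 5 (23.8%) below. Gapdh had 43750.4, 37339 and 41372 in WT and 22912 to 31008 in the clones, and the hexokinase Hk2 had 3262, 2762 and 2722 in WT, 2045, 2102 and 1984 in KO1, 948, 845 and 939.8 in KO2 and 2205, 2282 and 2176 in KO3. Pfkfb3, which makes the activator of phosphofructokinase, lay above with 319, 326 and 379 and 485 to 885.

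Of 20 contractile genes 0 lay above WT and 11 (55%) below, and of 18 genes of YAP and TEAD signalling 0 lay above and 8 (44.4%) below, against 15.3% of all tested genes below. The median changes were -0.44 for the contractile list and -0.07 for the YAP and TEAD list, whose other 10 genes did not meet the rule. Tpm4, a cytoskeletal tropomyosin, had 16224, 15937 and 15915 in WT, 11026, 10767 and 10894 in KO1, 7389, 7391 and 7595 in KO2 and 9099, 9097 and 8522 in KO3. Srf, the serum response factor that drives actin genes, had 1102, 1270.4 and 1298 in WT and 634 to 898 in the clones. Actg2, the enteric smooth muscle actin, had 796, 924 and 815 in WT, 226, 193 and 238 in KO1, 19.6, 12.5 and 10.5 in KO2 and 159, 121 and 127 in KO3. Ccn2, connective tissue growth factor, had 7339.6, 7638 and 7827 in WT, 3706, 3512 and 3242 in KO1, 1251, 1631 and 1678 in KO2 and 1661, 1616 and 1508 in KO3, and its relative Ccn1 had 6182, 6262 and 6849 in WT, 4141, 4133 and 4197 in KO1, 1359, 1607 and 1644 in KO2 and 2788, 2739 and 2950.1 in KO3. For both CCN genes KO1 stood nearest to WT and KO2 was among the lowest. Nuak2, a kinase induced by YAP, had 984, 1000.2 and 1030.5 in WT, 263, 247 and 282 in KO1, 254, 287 and 251 in KO2 and 261, 259 and 264 in KO3 and differed little between the clones.

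The 250 bases before Ccn1 (chr3:145649986-145650235, minus strand) are shown for the TEAD letters GGAATG, read as CATTCC on the other strand and set in capitals. They were found in 4 of 4 YAP and TEAD members with a window, in 9 of 11 genes of the list, in 5 of 8 contractile members and in 12.1% of all windows. Of all shared genes it was 13.7% above WT and 12.9% below. The CArG box of SRF was found in 2 of 8 contractile members, Srf and Vcl, and in 1.25% of all windows.
Ccn1: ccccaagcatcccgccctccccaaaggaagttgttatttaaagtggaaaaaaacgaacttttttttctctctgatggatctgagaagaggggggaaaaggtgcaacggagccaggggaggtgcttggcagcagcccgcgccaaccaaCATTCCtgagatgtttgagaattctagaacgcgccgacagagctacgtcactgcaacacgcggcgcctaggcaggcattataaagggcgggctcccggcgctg

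Extracellular matrix genes stood on both sides of WT. Of 18 collagen chains, 3 (16.7%) lay above WT and 9 (50%) below, against 13.7% and 15.3% of all tested genes. Col3a1, the fibrillar collagen III chain, had 156, 133 and 156 in WT, 8004, 6653 and 9159 in KO1, 1013, 772 and 866 in KO2 and 3847, 3357 and 3789 in KO3. Col8a1, a short network-forming chain, had 7498, 6424 and 6320.3 in WT, 1312, 1300.2 and 1173 in KO1, 753, 854 and 885 in KO2 and 1554, 1455 and 1320.0 in KO3. Col5a2, a fibrillar chain, had 94789.7, 81724 and 79672 in WT and 40682 to 49639.6 in the clones, and Col1a2 had 311509, 308960.0 and 304717 and 216181 to 256468. Col27a1 lay above with 114, 92.2 and 133 in WT and 412 to 977 in the clones. Of 36 matrix glycoproteins and proteoglycans 9 (25%) lay above and 11 (30.6%) below. Postn, periostin, had 0, 6.21 and 0.903 in WT, 357, 338 and 391 in KO1, 23.3, 21.1 and 10.5 in KO2 and 138, 153 and 152 in KO3, and Tnxb, tenascin-X, had 114, 80.8 and 116 in WT and 493 to 935 in the clones. Smoc1, a calcium-binding matrix protein, had 2861, 2804 and 2877 in WT, 1069, 1109 and 1089 in KO1, 1409, 1246 and 1209 in KO2 and 323, 337 and 391 in KO3 and lay below. Of 36 matrix proteases and inhibitors 8 (22.2%) lay above and 6 (16.7%) below, the latter share near that of all tested genes. Plau, the urokinase, had 1903, 1968 and 2009.5 in WT, 464, 526 and 506 in KO1, 428, 474 and 466 in KO2 and 409, 402 and 399.5 in KO3, and its receptor Plaur had 3876, 3945 and 3742 in WT and 1017 to 1763 in the clones. Adam19, a membrane protease, lay above with 1155, 1071 and 948 and 3487 to 5737. The urokinase gene and its receptor thus both stood below WT in all clones.

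Integrins, the receptors for that matrix, had 6 of 18 (33.3%) above WT and 8 (44.4%) below, against 13.7% and 15.3% of all tested genes. Itga6, a laminin receptor chain, had 1053, 888 and 921 in WT, 2822, 2828 and 2918 in KO1, 4373, 4417 and 3844 in KO2 and 5575, 5616 and 5194 in KO3. Itgb8, a chain that binds latent TGF-beta, had 7.06, 4.14 and 7.23 in WT and 143 to 366 in the clones. Itgb5, of the vitronectin receptor, had 7284, 7785 and 7972 in WT, 1573, 1539.8 and 1455 in KO1, 339, 385 and 335 in KO2 and 2103, 1815 and 2083 in KO3 and its KO2 minus KO1 difference was -2.11 (SE 0.07, adjusted p = 1.3e-09) by limma. Itga8 had 1429, 1244 and 1216 in WT and 234 to 784 in the clones. Of 24 tested genes of cell-cell adhesion, 7 (29.2%) lay above and 4 (16.7%) below. L1cam, a neural adhesion molecule, had 3.53, 5.18 and 8.13 in WT, 107, 146 and 177 in KO1, 72.8, 38.3 and 44.0 in KO2 and 509, 667 and 688 in KO3. Pcdh19, a protocadherin, had 1234, 1001 and 1049 in WT and 3566 to 5935 in the clones. Cd44, the hyaluronan receptor, lay below with 8868, 8063 and 7797 and 3178 to 5139.

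Signalling genes followed no common side. Of 38 growth factors and receptors 9 (23.7%) lay above WT and 12 (31.6%) below, against 13.7% and 15.3% of all tested genes. Hgf, the ligand of the receptor Met, had 21.2, 11.4 and 14.5 in WT, 1114, 1157 and 1076 in KO1, 1670.0, 1608 and 1732 in KO2 and 427, 433 and 389.9 in KO3. Gfra2, a co-receptor for neurturin, had 27.0, 47.6 and 54.2 in WT, 903, 969 and 961 in KO1, 1969.5, 1831 and 1835 in KO2 and 431, 483 and 488 in KO3, and Igfbp4, an IGF-binding protein, had 314, 358 and 387 in WT and 1786 to 5157 in the clones. On the other side were ligands of the receptor Fgfr2. Fgf7 had 9479, 7769.7 and 7828 in WT, 1591, 1552 and 1467 in KO1, 2578, 2812 and 3167 in KO2 and 1698, 1669 and 1524 in KO3, Fgf10 had 507, 425 and 437 in WT and 20.2 to 51.7 in the clones, and Fgfr2 itself had 9021, 8998 and 8934 in WT, 3616, 3277 and 3569.7 in KO1, 5925, 5749 and 5735 in KO2 and 2222, 2106 and 2405 in KO3. Igf2r, which carries lysosomal enzymes and clears IGF2, had 11987, 10216 and 10288 in WT, 3182, 3156 and 3118 in KO1, 400.2, 399.6 and 462 in KO2 and 4004, 3913 and 3772 in KO3. For Igf2r the KO2 minus KO1 difference was -2.91 (SE 0.07, adjusted p = 8.1e-11) by limma. Of 29 genes of TGF-beta and BMP signalling 3 (10.3%) lay above and 8 (27.6%) below. Ltbp1, which tethers latent TGF-beta in the matrix, had 18727, 17583 and 17309 in WT, 2469, 2494 and 2302 in KO1, 2517, 2666 and 2715 in KO2 and 6768, 7172 and 6813 in KO3. Tgfb2, the ligand, had 683, 621 and 640.3 in WT and 210.1 to 352 in the clones, and Smad7, the inhibitory SMAD, had 1929, 1265 and 1582 and 553 to 1112.

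Of 18 Wnt pathway genes 7 (38.9%) lay above WT and 4 (22.2%) below, against 13.7% and 15.3% of all tested genes. Ror1, a receptor for Wnt5a, had 76.4, 67.3 and 75.0 in WT, 924, 889 and 911 in KO1, 1164, 1204 and 1209.7 in KO2 and 542, 559.8 and 499 in KO3. Lgr4, a receptor for R-spondins, had 3984, 3324 and 3601 in WT, 14383, 14329.7 and 14747 in KO1, 21622, 20644 and 21119.5 in KO2 and 7311, 7549.7 and 7002 in KO3. Among the Frizzled receptors Fzd1, Fzd2 and Fzd4 lay above and Fzd5, Fzd6 and Fzd8 below. Fzd4 had 298, 313 and 270.0 in WT and 495 to 912 in the clones, and Fzd5 had 699.7, 611 and 699 and 275 to 446. Of 36 genes of G protein signalling 7 (19.4%) lay above and 10 (27.8%) below. Htr2a, a serotonin receptor, had 38.8, 32.1 and 36.1 in WT, 456, 428 and 483 in KO1, 485, 479 and 572 in KO2 and 316, 355 and 278 in KO3. Rgs2, which shortens Gq signals, had 666, 561 and 520.2 in WT, 2863, 3157 and 2980.5 in KO1, 3155, 3467 and 3079.6 in KO2 and 3689, 3762 and 3719 in KO3, while its relative Rgs16 had 535, 523 and 563 in WT and 3.11 to 22.9 in the clones. Pde3a, a cAMP phosphodiesterase, lay below with 4205, 3541 and 3394 in WT, 932, 983 and 1002 in KO1, 916, 956 and 1022 in KO2 and 331, 333 and 278 in KO3. Of 30 axon guidance genes 7 (23.3%) lay above and 5 (16.7%) below, the latter share near that of all tested genes. Sema3f, a repellent ligand, had 6777, 6473 and 6375 in WT and 1458 to 2479 in the clones, and its receptor Nrp2 had 7745, 6590.4 and 6747 in WT, 1958, 2076 and 2041 in KO1, 998, 1095 and 1152 in KO2 and 4914, 5099 and 4849 in KO3. Of 17 genes of cytokines, chemokines and some receptors 1 (5.88%) lay above and 8 (47.1%) below, the receptors Il2rg and Tnfrsf11b among the latter. Medians of this list were 0.25 in KO1, -0.78 in KO2 and -0.64 in KO3, so the clones did not share a level for it. Cxcl5, the neutrophil chemokine, was the 1 above with 201, 206 and 246 in WT and 487 to 1321 in the clones. Il15 had 125, 158 and 133 and 21.8 to 73.7, and Il6 had 103, 84.9 and 84.9 and 26.3 to 78.1.

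Interferon-stimulated genes had 9 of 32 (28.1%) above WT and 0 below, against 13.7% of tested genes above. List medians were 1.04 in KO1, 1.20 in KO2 and 0.10 in KO3, so the clones did not share a level for it. Trim30a, a restriction factor of the TRIM family, had 2449.7, 2153 and 2050.2 in WT, 3793, 4192 and 4174 in KO1, 8879, 7994 and 8142 in KO2 and 3463, 3546 and 3219.7 in KO3. Ifi27 had 501, 628 and 645 in WT and 871 to 1567 in the clones. The immunity-related GTPase genes Igtp and Irgm2 overlap on chromosome 11, so their reads may not be told apart. Igtp had 28.2, 48.7 and 46.1 in WT, 203, 207 and 196 in KO1, 188, 145 and 141 in KO2 and 61.2, 55.3 and 70.3 in KO3, and Irgm2 had 40.0, 42.5 and 29.8 and 84.2 to 205. Gbp4, a guanylate-binding protein with close paralogs, had 0, 1.04 and 1.81 in WT, 220.5, 236 and 194 in KO1, 33.6, 11.5 and 56.3 in KO2 and 45.6, 8.77 and 7.46 in KO3. For Igtp and Gbp4, KO1 was highest and KO3 had values nearest to WT. H2-T23, a non-classical MHC class I gene, was the only 1 of 12 class I genes in the shared set, with 92.9, 103 and 97.5 in WT and 152 to 456 in the clones.

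Bases before Trim30a (chr7:104465194-104465443, minus strand) and Igtp (chr11:58199306-58199555, plus strand) are shown for the interferon-stimulated response element GAAANNGAAA, in capitals on either strand. It was found in 4 of 5 interferon members with a window, in 16 of 22 genes of the whole list, and in 277 of all 9221 windows. Of all shared genes it was 3.07% above WT and 2.28% below.
Trim30a: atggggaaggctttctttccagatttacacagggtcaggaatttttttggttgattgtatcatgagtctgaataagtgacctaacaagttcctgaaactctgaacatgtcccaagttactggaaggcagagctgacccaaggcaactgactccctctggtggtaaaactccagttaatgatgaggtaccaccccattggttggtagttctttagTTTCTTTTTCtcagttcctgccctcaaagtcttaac
Igtp: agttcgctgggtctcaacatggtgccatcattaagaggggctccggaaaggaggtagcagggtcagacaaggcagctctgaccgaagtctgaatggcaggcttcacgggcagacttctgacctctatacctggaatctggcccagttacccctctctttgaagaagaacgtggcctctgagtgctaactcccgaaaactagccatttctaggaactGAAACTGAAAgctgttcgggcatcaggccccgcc

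Of 29 genes of NRF2 and its targets, 11 (37.9%) lay above WT and 2 (6.90%) below, against 13.7% and 15.3% of all tested genes. The other 16 met neither side of the rule. Nfe2l2, which encodes NRF2 itself, had 3021, 2709.7 and 2748 in WT, 5739, 5523 and 5530.1 in KO1, 5630.5, 5580.1 and 5894 in KO2 and 8949, 8856 and 8996 in KO3. Gsta4, a glutathione transferase that detoxifies lipid aldehydes, had 1355, 1725 and 1689.8 in WT, 3911, 3943 and 3875 in KO1, 4775, 4796 and 4942 in KO2 and 8954, 8407 and 8794 in KO3, and Nqo1, a quinone reductase, had 1943, 2084 and 2116 in WT, 2898, 3056 and 2867 in KO1, 4303, 4798 and 4883 in KO2 and 9198, 9030.0 and 8686 in KO3. For all 3 genes KO3 was the highest clone. Gsr, glutathione reductase, lay below with 2849.5, 2761 and 2884 in WT and 1623 to 2549.5 in the clones. Of 9 genes of the aryl hydrocarbon receptor system, 5 lay above and 1 below. Ahr, the receptor, had 365, 380.0 and 382 in WT, 890.5, 914 and 906 in KO1, 534, 582 and 573 in KO2 and 1315, 1243 and 1145 in KO3, and its repressor Ahrr had 129, 126 and 127 in WT and 151 to 288 in the clones. Cyp1b1, a P450 enzyme that the receptor induces, was the 1 below, with 6274, 5470.0 and 5869 and 62.9 to 105. Of 34 genes of the integrated stress response, Atf4 among them, 5 (14.7%) lay above, near the 13.7% of all tested genes, and 0 below. Ddit3, which encodes CHOP, had 496, 639.9 and 546 in WT, 1289.7, 1129 and 1178 in KO1, 705, 648 and 709 in KO2 and 4466, 4101 and 4630.3 in KO3, and Cebpb had 312, 592 and 719.8 in WT and 850.1 to 1372 in the clones. The medians of this list were 0.10 in KO1, -0.56 in KO2 and 0.84 in KO3, so the clones did not share a level for it.

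Of 22 folding factors of the endoplasmic reticulum 2 (9.09%) lay above WT and 8 (36.4%) below, against 13.7% and 15.3% of all tested genes. Pdia6, a disulfide isomerase, had 41221, 37209 and 36228 in WT, 16082, 15294 and 15262 in KO1, 20384, 21686 and 24058 in KO2 and 12190.5, 11476 and 11449 in KO3, and Pdia3 had 58961, 59429 and 58593 in WT and 25491 to 43028 in the clones. Hspa5, the chaperone BiP, had 51816, 43948 and 43348 and 32187 to 41989. Herpud1, of the degradation machinery, lay above with 1766, 1541 and 1661 and 2178 to 4024. Lysosomal and autophagy genes had 6 of 32 (18.75%) above and 5 (15.6%) below, near the shares of all tested genes. Sqstm1, the autophagy receptor p62, had 7259.6, 6835 and 6738 in WT, 10566, 10914 and 10892 in KO1, 10642, 10142 and 9685 in KO2 and 17591, 17634 and 18932 in KO3. Ctsk, the collagen-degrading cathepsin K, had 242, 270.2 and 291 in WT, 6.42, 10.6 and 6.89 in KO1, 3.73, 3.83 and 6.15 in KO2 and 8.29, 6.14 and 6.39 in KO3.

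Of 52 transcription factors of cell lineage tested, 17 (32.7%) lay above WT, against 13.7% of all tested genes, and 10 (19.2%) below, near the 15.3% of all. Egr1 and Egr2 are immediate-early zinc-finger factors. Egr1 had 1681, 1656 and 1629 in WT, 5698, 5514 and 5959 in KO1, 5408, 5621 and 5721 in KO2 and 4439, 4843 and 5323 in KO3, and Egr2 had 47.0, 48.7 and 60.5 in WT and 329.6 to 581 in the clones. Klf4, a Krüppel-like factor, had 1403, 1488 and 1461 and 3309 to 6025. Pparg, the adipogenic nuclear receptor, had 41.2, 34.2 and 40.6 in WT, 421, 424 and 420.0 in KO1, 76.5, 73.8 and 88.8 in KO2 and 537, 557 and 547 in KO3, and Lpl, lipoprotein lipase, had 1929, 1632 and 1693 in WT, 7005, 6803 and 6616 in KO1, 3840.1, 3786 and 4047 in KO2 and 8788, 8721 and 8367 in KO3. The defining adipocyte genes Cebpa and Lep were at 0 in all libraries. Below WT, Tbx18, a T-box factor of mesenchymal progenitors, had 8292, 7682 and 8043 in WT, 1231, 1184 and 1158 in KO1, 3023, 3149 and 3120.1 in KO2 and 1484, 1399.5 and 1367 in KO3, and Foxc1 had 1342, 1359 and 1427 in WT and 242 to 437 in the clones. Mef2c, of the MADS-box family, had 3603, 2721 and 2801 and 458 to 894. Hdac9, a class IIa deacetylase that binds MEF2, had 3234, 3035 and 3037 in WT, 138, 128 and 114 in KO1, 25.2, 16.3 and 26.4 in KO2 and 81.9, 55.3 and 59.7 in KO3. Of 21 Hox genes tested, 3 lay above and 0 below. Hoxc4 had 107, 124 and 110.2 in WT and 128 to 202 in the clones, a narrow step. Of 16 imprinted genes tested, 2 lay above and 3 below. Dlk1 and Mirg, both read from the Dlk1 to Dio3 domain of chromosome 12, lay above, and Mirg had 11.8, 71.4 and 38.8 in WT, 623, 609 and 741 in KO1, 2564, 2403 and 2227 in KO2 and 158, 123 and 151 in KO3. Plagl1 and Peg3, zinc-finger genes, lay below, with 2505, 2596 and 2541 in WT and 1132 to 1833 in the clones for Plagl1.

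**Figure D3:**
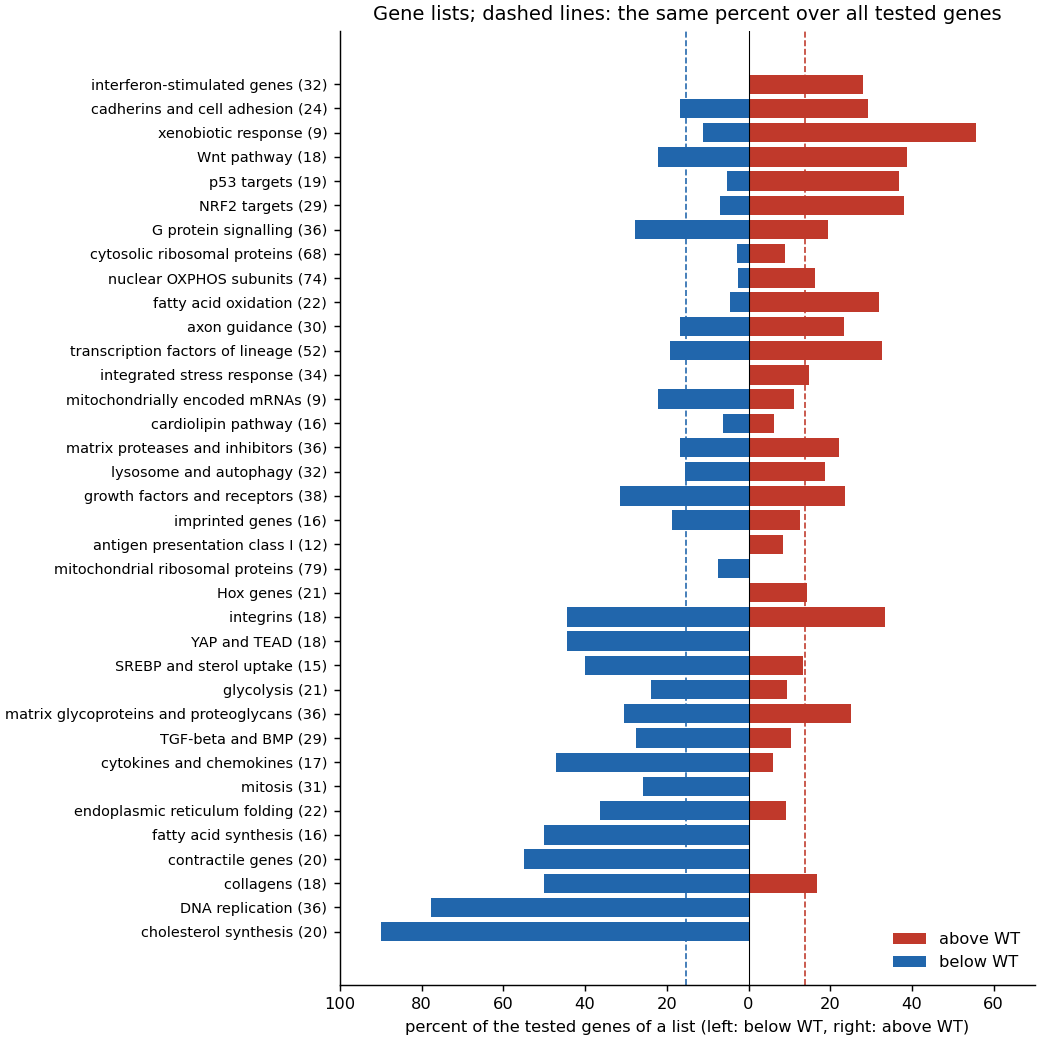
Percent of the tested genes of each list that lay above WT (red, to the right) or below (blue, to the left) in all 9 clone libraries, ordered by the median change, with the number tested in parentheses. Dashed lines mark the same percent over all 15073 genes, 13.7 above and 15.3 below; cholesterol synthesis at 90 and DNA replication at 77.8 reach farthest to the left.

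Some members had no reads at all on 1 side and so passed the filter on low values only through the other. The bounds given for them do not allow for counting error on the side with reads. Of the genes above, 22 had 0 reads in all WT libraries, and a fold can then only be bounded with a floor of 3 reads over the group. Sdk1, a synaptic adhesion molecule, exceeded that floor at least 417-fold in KO1 and at least 60.7-fold in KO2, with 52.9, 47.4 and 58.6 normalized counts in KO3. Kcnh5, a voltage-gated potassium channel, was at least 40.2, 67.8 and 57.8-fold higher. Alk, a receptor tyrosine kinase, was at least 132, 12.2 and 40.4-fold higher, and the LIM homeobox gene Lhx8 at least 24.2, 27.1 and 12.2-fold. Of the genes below, 9 had 0 reads in all 9 clone libraries. For these the floor of 3 reads was set over the 9 libraries pooled, and a floor for each clone would give smaller bounds. Lrch2, a leucine-rich repeat protein, had a WT mean of 296 and was at least 903-fold lower in the clones together. Pigh, which encodes a subunit of the enzyme that starts GPI-anchor synthesis, had a WT mean of 133 and was at least 405-fold lower. Pxdc1 was at least 315-fold lower, and Fst, the activin inhibitor follistatin, at least 35.4-fold. These genes were named after their counts were seen. Salmon gives estimated counts, so a 0 here may be a rounded estimate.

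The order of the clones among themselves was not used to choose the genes, and their differences were tested with limma across all 15073 genes. The rule does use the 9 clone values, and it drops a gene when any of them reaches WT. Shares among the shared genes, here and for each pair of clones, are therefore a description shaped by the rule. With 3 libraries per clone, 65.0% of all tested genes differed between the clones at an adjusted p under 0.05. Among the shared genes it was 1392 of 2072 above WT (67.2%) and 1569 of 2308 below (68.0%), close to that background. Among the tested genes outside the shared set it was 64.0%. No pair of clones differed for 1221 of the 4380 (27.9%), near the 30.4% of all tested genes. All 3 pairs differed for 709 (16.2%), near the 16.0% of all tested genes.

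Over all tested genes, KO2 was higher than KO1 in 20.5% and lower in 23.9%, KO3 was higher than KO1 in 20.3% and lower in 23.4%, and KO3 was higher than KO2 in 26.1% and lower in 27.0%. Among genes above WT, KO2 was higher than KO1 in 650 (31.4%) and lower in 335 (16.2%). Among genes below WT, KO2 was lower than KO1 in 824 (35.7%) and higher in 289 (12.5%). Among genes above WT, KO3 was lower than KO2 in 690 (33.3%) and higher in 440 (21.2%), and among genes below it was higher in 763 (33.1%) and lower in 547 (23.7%). KO3 was higher than KO1 in 479 genes above WT (23.1%) and lower in 418 (20.2%). KO3 was lower than KO1 in 612 genes below WT (26.5%) and higher in 349 (15.1%). As a description, KO2 was the clone farthest from WT in 46.9% of genes above and 47.2% of genes below, against 42.9% of tested genes. KO1 was farthest in 21.2% and 17.1%, against 23.4%.

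At 1 extreme were genes that all clones held at nearly the same level. Nuak2 had log2 changes of -1.93, -1.93 and -1.94 in KO1, KO2 and KO3, a range of 0.01. Abcd2, a peroxisomal fatty acid transporter, had 103, 106 and 76.8 in WT, 575, 403 and 520.4 in KO1, 519, 463 and 446 in KO2 and 518, 404 and 507 in KO3, and its clone changes spanned 0.06. Mpp1, a membrane-associated guanylate kinase, had 703, 702 and 702 in WT, 2485, 2768 and 2510.3 in KO1, 2626, 2513 and 2766 in KO2 and 2732, 2610.4 and 2802 in KO3. Skp2, the F-box protein that marks p27 for degradation, had 1718, 1454 and 1474 in WT and 652 to 854 in the clones, with a range of 0.07. Zmiz1, a SUMO ligase, had 1842, 1628 and 1620.3 and 5874 to 7164, and Pclaf, a PCNA-binding factor, had 8446, 6320.1 and 5551 and 2519.9 to 3707. These genes were chosen for their small range, so the range is a description, with no test.

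At the other extreme, genes on 1 side of WT in all clones still spanned orders of magnitude. They were chosen for their large range, which is again given with no test. Ces1g, a carboxylesterase with close paralogs, had 0, 0 and 0 in WT, 441, 425 and 398 in KO1, 1.87, 0.958 and 2.64 in KO2 and 97.4, 99.2 and 91.6 in KO3, and its clone changes spanned 7.27. It passed the filter on low values through KO1 and KO3. Ptprt, a receptor phosphatase, had 0, 0 and 0.903 in WT, 884, 751 and 882 in KO1, 3.73, 9.58 and 5.27 in KO2 and 509, 828 and 834 in KO3, a range of 6.95. KO2 had few reads of either gene and lay above WT only by those. Pcnx2 had 1.18, 0 and 1.81 in WT, 71.7, 69.7 and 69.8 in KO1, 369, 331 and 328 in KO2 and 3.11, 2.63 and 4.26 in KO3, here with KO2 highest and KO3 lowest. Tenm4, a teneurin, had 54.1, 15.5 and 18.97 in WT, 1987, 1831 and 1809 in KO1, 101, 141 and 189 in KO2 and 4474, 4529 and 4190.3 in KO3. Grpr, the receptor for gastrin-releasing peptide, had 477, 375 and 325 in WT, 1.07, 0 and 0.984 in KO1, 135, 137 and 131 in KO2 and 9.33, 8.77 and 12.8 in KO3, and Tnfrsf11b, the RANKL decoy osteoprotegerin, had 3795, 3391 and 3447 in WT, 21.4, 31.7 and 21.6 in KO1, 325, 363 and 411 in KO2 and 91.2, 83.4 and 45.8 in KO3. For both of these genes below WT, KO1 was the lowest and KO2 the highest clone. Lcp1, the actin-bundling plastin of blood cells, and Tspan2, a tetraspanin, had KO1 nearest to WT, with 259, 231 and 288 and 235, 230.1 and 261 against WT values of 568, 502 and 498 and 543, 487 and 492.

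**Figure D4:**
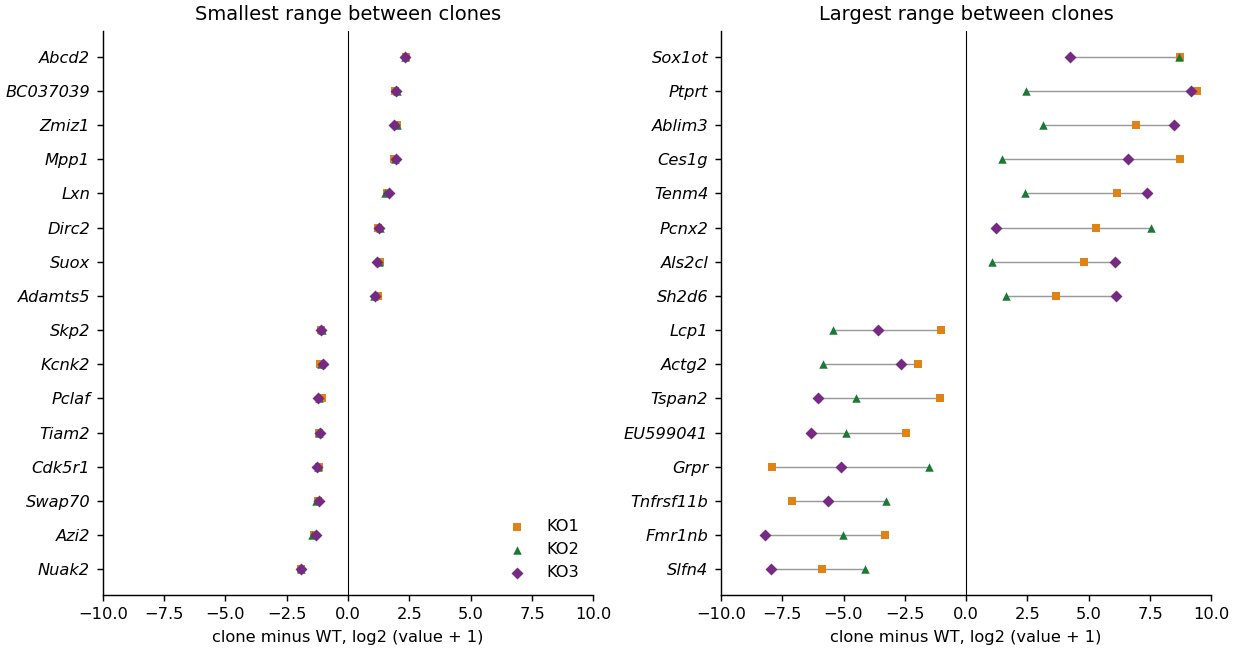
Clone minus WT on the log2(value + 1) scale for each clone (symbols) at the 16 shared genes with the smallest range between clones (left) and the 16 with the largest (right), among those at least 2-fold from WT in every clone. The symbols of the left panel lie on top of each other, with Nuak2 spanning 0.01, while Ces1g on the right spans 7.27.

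The shared genes were spread unevenly over the chromosomes. On chromosome 13, 33.5% of 585 tested genes lay below WT in all clones and 6.50% above, and on chromosome 3 it was 31.9% below and 6.72% above. Chromosomes 1, 9 and 17 had 25.1%, 23.7% and 21.1% below. On chromosomes 10, 14 and 15 the lean was to the other side, with 22.7%, 20.7% and 19.8% above and 8.32%, 5.93% and 12.8% below. Medians over all tested genes of a chromosome moved with these shares. For chromosome 13 they were -0.22 in KO1, -0.33 in KO2 and -0.29 in KO3, and for chromosome 3 they were -0.17, -0.25 and -0.25. For chromosome 14 they were 0.16, 0.06 and 0.19. Chromosome 10 was uneven, at 0.17, 0.01 and 0.32, as were chromosome 17, at -0.18, -0.26 and -0.02, and the X, at 0.07, 0.05 and -0.28. The densest run of 51 neighbouring genes below WT held 27 of them, at chr13:52835119-59769810, where the medians were -0.30, -0.54 and -0.40. Dense runs above WT held 23 of 51, at chr10:77290726-80172786 and chr11:40679314-50235103.

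The members were counted again after each library's value had the median of the 100 nearest genes subtracted, an alternative added with the data in view. Then 1972 genes lay above WT and 2217 below, of which 1602 and 1743 were in the sets above. The cholesterol list had 18 genes below and the DNA replication list 29 after this step, and the interferon list 9 above. Cytosolic ribosomal proteins went from 6 above and 2 below to 0 and 1, nuclear subunits of oxidative phosphorylation from 12 and 2 to 8 and 0, and fatty acid oxidation from 7 and 1 to 6 and 0. Mitochondrial ribosomal proteins went from 0 above and 6 below to 3 and 5, and TGF-beta and BMP signalling from 3 and 8 to 5 and 11. The median changes were -0.89 for cholesterol synthesis and -0.63 for DNA replication. Whether the position of a gene had a part in its difference was not tested.

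**Figure D5:**
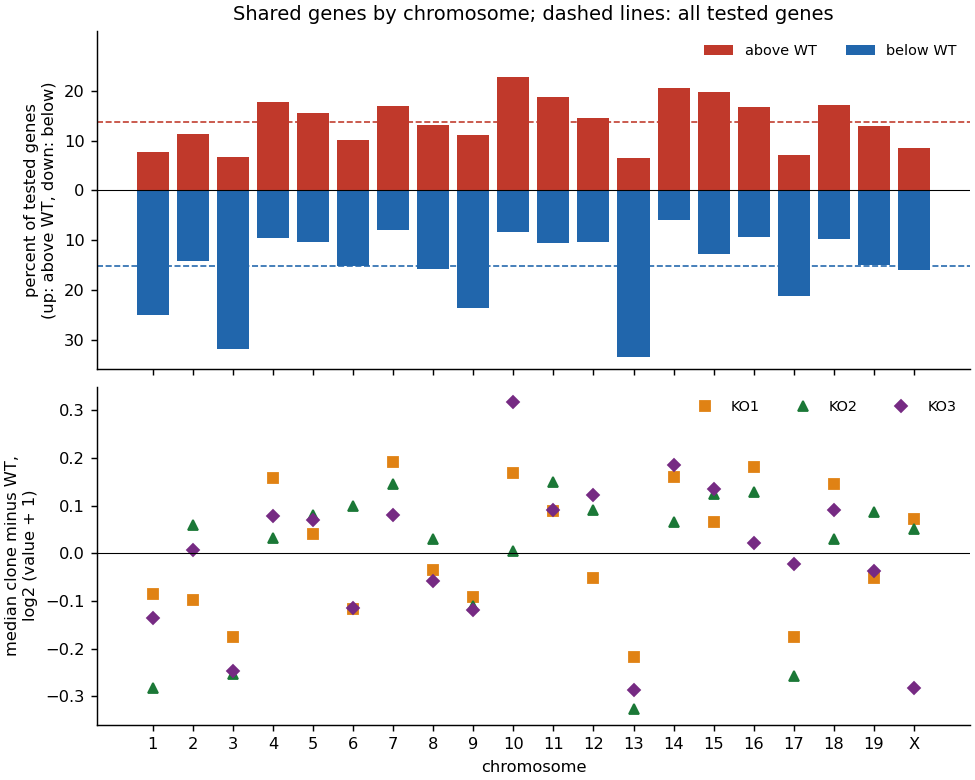
Top, percent of the tested genes of each chromosome that lay above WT (upward) or below (downward) in all clone libraries, with dashed lines for all tested genes. Bottom, median change of each clone over all tested genes of the chromosome, log2. Chromosomes 3 and 13 are low in all 3 clones, and the clones part on chromosomes such as 10 and X.

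At the edge of the rule, the nearest clone and WT libraries were separated by next to nothing. Papola, a poly(A) polymerase, was just inside, with 8254, 7893 and 7739 in WT and 8635, 8911 and 8256, 8445, 9163 and 8799 and 10413, 11090.3 and 9266 in the clones KO1, KO2 and KO3. Mgst2, a microsomal glutathione transferase, was also just inside, with 219, 300.3 and 335 and 335 to 666. Tor2a was just outside, with 327, 363 and 371 in WT and 371 to 566 in the clones, and so were Tada2a below, with 1574, 1484 and 1499 and 1279 to 1484, and Ltn1, with 3935, 3541 and 3651 and 3017 to 3541. Kif11, a mitotic kinesin, was just inside below WT, with 7129, 6008 and 6041 and 3487 to 6006. Genes read in 1 clone alone also fell just outside, with WT and another clone at 0. Slit2, an axon guidance ligand, had 0, 0 and 0 in WT, 1948, 1694 and 1651 in KO1, 0, 0 and 0 in KO2 and 0, 0 and 2.13 in KO3.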

How the data were processed

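Total RNA of 12 NIH-3T3 samples was sequenced after cytoplasmic ribosomal RNA depletion with random priming, per the labels' protocols. The submitters' processing notes name Salmon 0.14.1, cutadapt, DESeq2 1.24.0 and the build GRCm38 (mm10), without their settings, and whether counting used strand is not stated. The deposited table holds normalized counts, a signal that is never negative, for 54392 gene rows. In each library 99.95% to 99.99% of values were whole multiples of 1 step within 0.02, so reads were recovered by multiplying back (32929242 to 42211807 per library). Since Salmon gives estimated counts, these may be rounded estimates. The authors' deposited tables of each clone against WT were not used, and 0 columns of other samples were present.

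Symbols and coordinates came from GENCODE M21 (35 identifiers unmatched), promoter windows from RefSeq GRCm38.p6. Genes with a value of at least 10 in at least 3 libraries were tested. Changes are differences of mean log2(value + 1), with a pseudocount of 1, which understates the change of low genes. Differences between clones were tested with limma 3.58.1 in R 4.3.3 over all 4 groups, an F test and 3 pairwise tests at a Benjamini-Hochberg adjusted p under 0.05. On recovered reads, edgeR 4.0.16 called 3010 and DESeq2 1.42.0 called 3093 of the shared genes different between clones, against 2961 by limma. Alternatives covered filters, pseudocounts, normalization, margins, the replicate block and leaving out each library. Promoter windows were also searched for the aryl hydrocarbon receptor core TTGCGTG and the ATF4 letters TGATGNAA. The former was in 0 of 4 xenobiotic members, 0 of 6 genes of the list and 1.66% of all windows, the latter in 0 of 4 integrated stress response members, 6 of 22 genes of the list and 2.17% of all windows. Scripts were tested on simulated data. Counting error alone limits values under about 10 reads.

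Named genes were Crls1, the 15 each way with the widest gap and a mean of at least 100, the 8 each way with the highest counts at 2-fold or more, the 8 each way with the smallest and with the largest clone range, the 5 each way just inside and just outside, and up to 6 each way per list with a mean of at least 50, leaving out predicted gene models. Clone ranges were ranked among genes at least 2-fold from WT in every clone. Genes at 0 reads were named afterwards, and some named genes are not reported here. The members and lists were chosen with earlier results of these data known. A difference between clones was picked out for the closing section when it was the count over all shared genes or belonged to a gene with the largest clone range.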

Additional observations from a re-analysis of the deposited data

Results flagged for a closer look

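Differences between the clones inside the shared set were picked out by their size. Of the 4380 shared genes, 2961 differed between the clones (limma F test, adjusted p under 0.05), against 65.0% of all tested genes. The 8 genes on each side with the widest spread of the 3 clone means follow, on the log2(value + 1) scale. They were picked for this spread, so it is a description, and passing the same test adds no support. Above WT, the spread was 7.27 for Ces1g, 6.95 for Ptprt, 6.32 for Pcnx2 and 5.36 for Ablim3, an actin-binding LIM protein. Als2cl reached 5.04, the teneurin Tenm4 4.97, Sh2d6 4.48 and the noncoding Sox1ot 4.48. Below WT, it was 6.40 for Grpr, 4.96 for Tspan2, 4.91 for Fmr1nb and 4.41 for Lcp1. Actg2 reached 3.89, EU599041 3.88, Slfn4 3.86 and Tnfrsf11b 3.84. KO2 was the clone nearest to WT for 6 of the 8 above WT.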

How the results depend on the processing

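The number of shared genes depended on the margin asked for between the nearest clone and WT libraries. With a margin of 1.5-fold, 548 genes lay above WT and 491 below, and with 2-fold 313 and 264, against 2072 and 2308 with none. No filter, a filter at 100, quantile normalization, TMM scaling and clone means in place of libraries gave 1773 to 3025 above and 2020 to 2998 below. Leaving out 1 library in turn gave 2124 to 2661 above and 2343 to 2845 below, the highest counts without WT replicate 1. For differences between clones it gave 2718 to 3243 shared genes, and 1769 to 2379 for KO2 minus KO1, 1550 to 2135 for KO3 minus KO1 and 2160 to 2668 for KO3 minus KO2. Under quantile normalization the mean clone change of mt-Co1 was 0 and that of mt-Nd1 0.014, opposite in sign or without one. A gene of unchanged rank gets 1 common value under this normalization, so the 0 cannot decide a direction. Among 341 named genes, the change of another 107 then moved by at least the pooled SD within groups, and 232 moved less. With a pseudocount of 5 the change of 44 named genes moved as far, and without WT replicate 1 that of 30. The cause was not tested.

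The replicate numbers did not pair the libraries. Deviations of same-numbered libraries correlated at -0.2209 to 0.1228 over 18 pairs, and 3 of 12 libraries correlated best with their own number. With the replicate number as a block, 2815 shared genes differed between clones, and 1971, 1722 and 2347 in the 3 pairs, against 2961, 2098, 1858 and 2440. This changed the call of 8 named genes.

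Genes whose clone or WT counts are a few reads are limited by counting error, and 213 members above and 99 below reached the filter through 1 side only. Of the genes above, 804 (38.8%) had WT replicate 1 as the WT library nearest to the clones, and 595 (25.8%) of those below. Each clone is 1 isolate, WT is 1 line, and no other edited or sorted control was analysed here.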
